A study of Mus musculus with 12 samples.

Results

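The genes described here carry out antigen presentation by MHC class I, and were chosen by name: H2-K1, H2-D1, H2-T23, B2m, Tap1, Tap2, Tapbp, Psmb8, Psmb9 and Nlrc5. All 10 were listed in each of the 12 deposited tables, among 24421 genes per table. Nearly all nucleated cells show fragments of their own proteins on class I molecules. The proteasome cuts the protein, the transporter made of TAP1 and TAP2 carries the peptide into the endoplasmic reticulum, and tapasin (Tapbp) holds an empty heavy chain, paired with beta-2 microglobulin (B2m), beside the transporter until a peptide binds. Interferons raise most of these genes, and in endothelium class I molecules make the vessel wall visible to cytotoxic T cells and to natural killer cells.

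The libraries were made from endothelial cells sorted by flow cytometry out of mouse lung at postnatal day 5, all of strain C57BL/6J, with 4 libraries in each of 3 groups. WT was labelled wild type. L12-ECKO carried VE-cadherin-CreERT2 with Lats1f/f and Lats2 f/f, so that the Hippo pathway kinases LATS1 and LATS2 are lost where the endothelial driver is active. L12YT-ECKO carried the same alleles and also Yapf/f and TAZf/f, which remove YAP and TAZ, the coactivators that those kinases hold back. The labels do not say whether WT mice carried the driver or floxed alleles, when or whether an inducer was given, or whether each library came from a separate animal, so p-values measure the spread between these libraries, which may be technical. RNA was read by QuantSeq, a method that sequences a tag near the 3′ end of each polyadenylated transcript. The deposited values are quantile-normalized log2 values, and the depth of the libraries is unknown.

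Some facts of the series bear on every value below. A block of 32 rows, with none of the 10 genes in it, was displaced in 5 libraries (3 from L12-ECKO, 2 from L12YT-ECKO and 0 from WT), and this mark of processing was treated as a batch. Sex was read from Xist and Ddx3y: L12-ECKO had 3 female libraries, against 1 for WT and 1 for L12YT-ECKO. The 3 female L12-ECKO libraries are its 3 displaced ones, so fits with sex or with the batch are not separate checks. The 12 endothelial markers were above 0 in every library, with sums of 29120 to 29930 CPM in WT, 26990 to 28790 in L12-ECKO and 28660 to 31600 in L12YT-ECKO. CPM is the deposited value taken out of the log and scaled to a common library total. Egfl7, the highest of the 12 markers, was 17.718 in all 12 libraries, so it could not be called. It adds nearly the same large part to every sum, which makes the groups look more alike than the other markers are. Against WT 0 of the 12 were called by limma, but in L12-ECKO 9 of 12 lay lower, 3 of the 12 had an unadjusted p under 0.05, and Tek did not overlap WT (-1.11, limma adjusted p = 0.0778). Cldn5 was 1.14 higher in L12YT-ECKO than in L12-ECKO (limma adjusted p = 0.04). The part of these shifts in the results below was not tested. Wwtr1 (TAZ) was 3.001 lower in L12YT-ECKO than in WT (SE 0.35, limma adjusted p = 0.000659). Yap1 was 2.08 lower (SE 0.406, limma adjusted p = 0.184). A 3′ tag outside the deleted part checks nothing. Lats2 was higher in L12-ECKO (mean 9.93) than in WT (8.93), without overlap (limma adjusted p = 0.26), and stood at 8.97 in L12YT-ECKO. Lats1 was 5.32 to 7.45 in WT, 0 to 7.40 in L12-ECKO and 0 to 7.90 in L12YT-ECKO, where 3 of 4 libraries were at 7.11 or above. In sorted cells measured in bulk, fewer cells of a type and less RNA per cell cannot be told apart.

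Of the 10 genes, 8 lie in the MHC region of chromosome 17 in the mm10 build (GENCODE M21 annotation). Tapbp spans 33915899 to 33929292 and H2-K1 33996017 to 34000347. Psmb9 (34181987 to 34187764), Tap1 (34187553 to 34197225), Psmb8 (34197721 to 34201454) and Tap2 (34203527 to 34216321) stand side by side within 34335 bases. H2-D1 spans 35262730 to 35267499 and H2-T23 36029773 to 36032855. B2m lies on chromosome 2 (122147686 to 122153083) and Nlrc5 on chromosome 8 (94434356 to 94527272). All are protein-coding. Psmb9, H2-K1 and H2-T23 are on the minus strand and the others on the plus strand.

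Class I promoters are known for a shared module, in which RFX, CREB/ATF and NF-Y proteins bind the X1, X2 and Y boxes and NLRC5 docks on them. An upstream element for NF-kB and interferon regulatory factors adds to it. RefSeq windows of 300 bases (build GRCm38.p6, with 250 bases before the start) were matched for 8 of the 10 genes, using for H2-K1 the start that lies farthest upstream. The sequences before the starts of H2-K1 and B2m are shown because they encode the heavy and the light chain of the class I molecule. Capitals mark matches to 4 patterns searched on both strands: ATTGG (Y box), TGACG (core of the X2 box), GAAA repeated after any 2 bases (interferon response element) and the NF-kB consensus. The H2-K1 stretch is chr17:34000348-34000597 on the minus strand, and the B2m stretch is chr2:122147437-122147685 on the plus strand.
H2-K1: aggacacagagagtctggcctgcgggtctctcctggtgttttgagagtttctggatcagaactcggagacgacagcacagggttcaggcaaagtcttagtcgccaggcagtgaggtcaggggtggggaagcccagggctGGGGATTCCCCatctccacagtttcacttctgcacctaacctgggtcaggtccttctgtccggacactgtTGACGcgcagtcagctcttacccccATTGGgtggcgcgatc
B2m: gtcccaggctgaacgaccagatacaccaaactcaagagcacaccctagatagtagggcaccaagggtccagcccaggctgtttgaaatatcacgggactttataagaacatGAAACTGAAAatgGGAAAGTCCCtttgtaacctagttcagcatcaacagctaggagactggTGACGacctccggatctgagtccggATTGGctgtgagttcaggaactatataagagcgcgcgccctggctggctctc

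In H2-K1, H2-D1 and B2m the X2 core was followed by a Y box on the same strand, and the first base of each pair lay 25 bases apart. The 30 bases from one box to the other are set under each other to show this, at chr17:34000359-34000388 (minus strand), chr17:35262993-35263022 (plus strand) and chr2:122147609-122147638 (plus strand).
H2-K1: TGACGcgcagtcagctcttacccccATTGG
H2-D1: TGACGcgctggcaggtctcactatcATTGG
B2m: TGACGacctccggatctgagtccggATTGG
A TGACG and an ATTGG at this spacing were found in 0.0944% of all 32851 RefSeq promoter windows on either strand, that is in 31 windows with 27 gene symbols, a search made after the matches were seen. Those symbols also included H2-M3, another class I heavy chain gene.

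Psmb9 and Tap1 start back to back, with 225 bases between their RefSeq starts. A Y box stood just before the Psmb9 start (chr17:34187331-34187360, minus strand) and an X2 core 86 bases before that of Tap1 (chr17:34187458-34187487, plus strand), both shown in 30 bases. In H2-T23 an interferon response element was matched on the opposite strand (chr17:36032806-36032835, minus strand).
Psmb9: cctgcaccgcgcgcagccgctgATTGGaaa
Tap1: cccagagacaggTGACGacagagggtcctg
H2-T23: atcctactgcTTTCTCTTTCataaagacac
A Y box was present in 7 of the 8 windows, against 37.4% of all promoter windows. The X2 core was present in 5, against 20.8% of all windows, the interferon response element in 2 (3.44%) and the NF-kB consensus in 3 (8.46%). The Psmb9 and Tap1 windows overlap, and the Y box and the X2 core counted for each are the same sites. A match is a description of the letters and not of a bound site. No motif was found in the Psmb8 window with these letters.

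Psmb9, a catalytic subunit of the immunoproteasome, was 6.48-fold higher in L12-ECKO than in WT, and Tap2, a chain of the peptide transporter, was 12.8-fold higher, although only Psmb9 passed the test over all genes. In L12YT-ECKO the same genes were 3.75-fold and 7.42-fold above WT, and no class I gene passed. The classical heavy chains H2-K1 and H2-D1, and B2m, lay within 1.7-fold of WT in each knockout group and overlapped it. Of 9 genes tested, 1 was called higher in L12-ECKO, against 0.481% of all 11634 genes tested in either direction (0.292% higher and 0.189% lower). With the knockouts taken as 1 group 0 of 9 were called, against 0.0946% of all genes (0.086% higher), with 3 of the 9 at an unadjusted p under 0.05. In L12YT-ECKO versus WT 0 of 9 were called, against 0.0086% of all genes, while 3 of the 9 had an unadjusted p under 0.05. Of all 11634 genes, 1422 had an unadjusted p under 0.05 by limma in L12-ECKO versus WT and 725 in L12YT-ECKO versus WT. It was 708 between the knockouts and 1260 with the knockouts as 1 group. Counts at an unadjusted p for the class I genes and the other lists are to be read beside these.

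**Figure D1:**
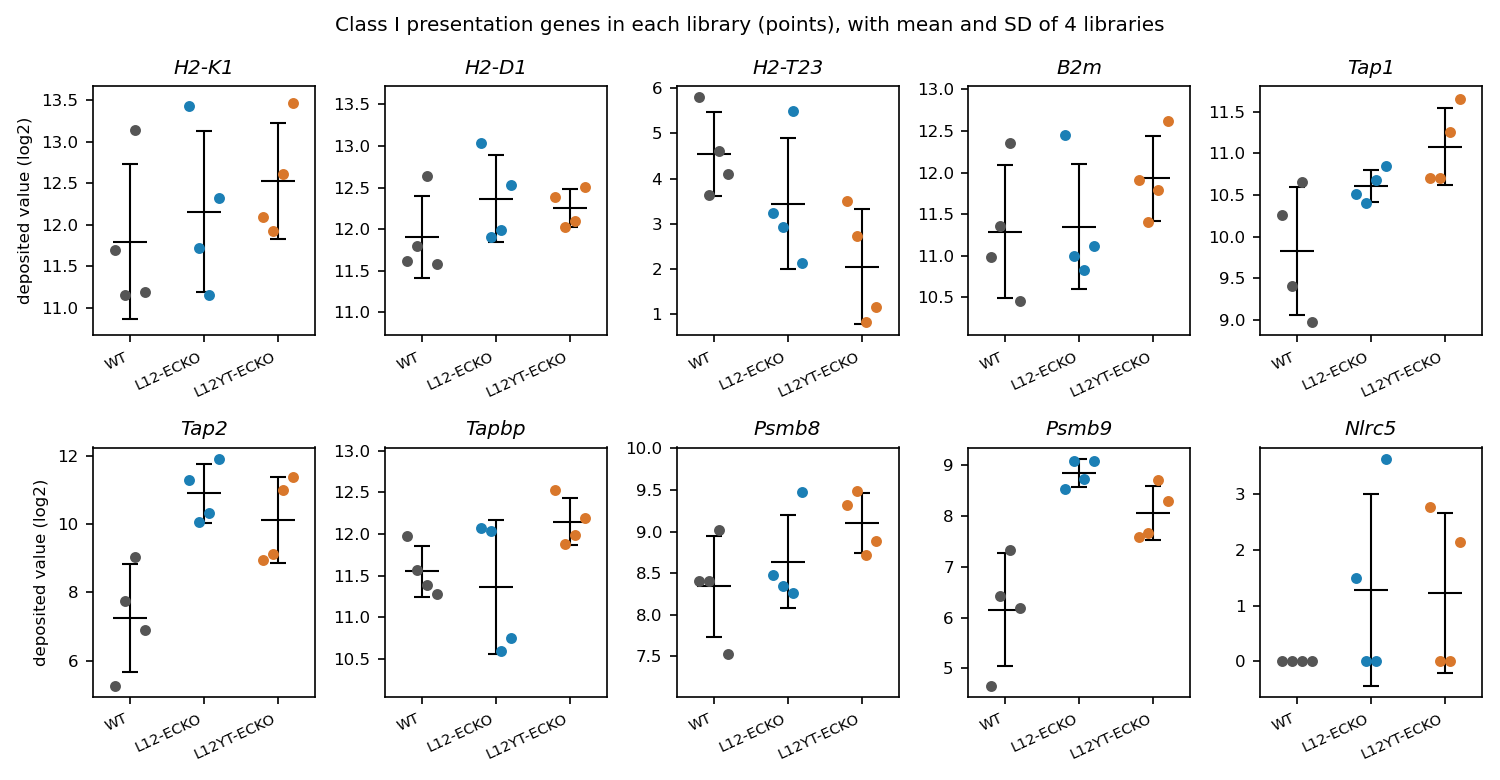
Deposited log2 values (vertical axes, which differ between panels) of the 10 class I presentation genes in each of the 12 libraries; points are libraries in replicate order, and the bars give the mean and SD of 4 libraries per group. Psmb9 shows all 4 L12-ECKO libraries, 8.52 to 9.08, above the highest WT library at 7.33, while H2-K1, H2-D1 and B2m overlap between groups.

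H2-K1 encodes H-2K, a classical heavy chain that shows peptides to CD8 T cells. Replicates 1 to 4 of WT had log2 values of 11.70, 11.16, 13.14 and 11.19. The L12-ECKO libraries held 13.43, 11.725, 11.15 and 12.32, and those of L12YT-ECKO held 12.09, 11.93, 12.62 and 13.47. The groups overlapped throughout, and 1 library in each group reached 13 or more. The log2 difference from WT was 0.36 in L12-ECKO (95% confidence interval -0.821 to 1.54) and 0.73 in L12YT-ECKO (-0.452 to 1.91).

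H2-D1 encodes the other classical heavy chain of this strain, H-2D. The WT libraries held 11.61, 11.79, 12.63 and 11.58. The L12-ECKO libraries held 13.03, 11.91, 11.98 and 12.53, and those of L12YT-ECKO held 12.39, 12.02, 12.10 and 12.50. WT replicate 3 was above all 4 L12YT-ECKO libraries, and the other WT libraries were below all 8 knockout libraries. The log2 difference from WT was 0.46 in L12-ECKO (limma adjusted p = 0.529) and 0.35 in L12YT-ECKO (limma adjusted p = 0.872).

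B2m encodes the light chain that every class I molecule needs to reach the cell surface. The WT libraries stood at 10.99, 11.35, 12.36 and 10.46. Those of L12-ECKO stood at 12.46, 11.00, 10.825 and 11.12, and those of L12YT-ECKO at 11.91, 11.40, 11.785 and 12.625. The means, 11.29 ± 0.803, 11.35 ± 0.747 and 11.93 ± 0.511 (SD, n = 4), came from groups that overlapped, and 3 of the L12-ECKO libraries were below WT replicate 2. B2m differed by 0.06 in L12-ECKO (limma adjusted p = 0.967) and by 0.64 in L12YT-ECKO (95% confidence interval -0.226 to 1.51).

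Within WT and within L12-ECKO, 1 library held the highest value of all of H2-K1, H2-D1 and B2m: WT replicate 3 and L12-ECKO replicate 1. These libraries also held the most transcript of the leukocyte markers in their groups. The summed level of the 18 leukocyte markers was 314.2 CPM in WT replicate 3 against 17.46 to 62.59 in the other WT libraries, and 8005 in L12-ECKO replicate 1 against 20.6 to 65.32 in the other L12-ECKO libraries. In L12-ECKO replicate 1 15 of the 18 markers were above 0, with the neutrophil genes S100a8 at 15.20 and S100a9 at 15.56 on the log2 scale and Ptprc (CD45) at 10.15. WT replicate 3 had 12 of 18 above 0. It held the highest WT values of S100a9 (10.98), S100a8 (10.07), Laptm5 (7.10), Cd52 (6.685), Cd53 (5.65), Coro1a (5.315), Csf1r (5.315) and Fcer1g (4.10). Lyz2, Tyrobp, Cd68, Cd3g, Itgam and Ptprc were each higher in another WT library, with Itgam and Ptprc listed at 0 in replicate 3. With both libraries left out, the difference between L12-ECKO and WT was 0.38 for H2-K1, 0.48 for H2-D1 and 0.05 for B2m. In L12YT-ECKO the highest values of H2-K1, H2-D1 and B2m were all in replicate 4, where the leukocyte sum was 21.99 within a range of 15.63 to 95.06.

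H2-T23 encodes Qa-1, a non-classical heavy chain that is a ligand of the NKG2 receptors on natural killer cells. It was low everywhere, with 5.80, 3.64, 4.61 and 4.11 in the WT libraries. L12-ECKO gave 3.24, 2.92, 5.50 and 2.13, and L12YT-ECKO 3.50, 2.74, 0.82 and 1.16. It reached 1 CPM in all 4 WT libraries, in 1 library of L12-ECKO and in 0 of L12YT-ECKO, so it passed the filter largely through the group where it was high, and the lack of overlap between L12YT-ECKO and WT supports nothing. The lowest value above 0 that a library lists also differed between groups, from 3.01 to 3.16 in WT, 0.07 to 4.98 in L12-ECKO and 0.13 to 2.77 in L12YT-ECKO. H2-T23 lay 0.47 to 2.79 above that lowest value in WT, 0.52 to 2.59 in L12-ECKO and 0.69 to 1.35 in L12YT-ECKO. The log2 difference from WT was -1.09 in L12-ECKO (limma adjusted p = 0.804) and -2.49 in L12YT-ECKO (limma adjusted p = 0.827).

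Counts of heavy chain genes can be split between copies. Of the 50-base words in the last 500 bases of the longest protein-coding transcript, 38.1% in H2-T23 occur exactly in transcripts of other genes, some of them class I genes, against 9.53% in H2-D1 and 0.443% in H2-K1. For B2m and the 6 other genes no word was shared. Through these shared words H2-T23 values are uncertain in a way that those of the processing genes are not. H2-T23 also lies fully inside the opposite-strand gene A930015D03Rik, and B2m inside Patl2, and whether the counting used strand is not given in the sources used here. Tapbp overlaps the protein-coding gene Zbtb22 on the same strand by 3422 bases, so counting by strand would not separate these genes there. The part of this overlap in the Tapbp values was not tested.

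Tap1 encodes the first chain of the peptide transporter. The WT libraries held 10.26, 9.41, 10.65 and 8.97. The L12-ECKO libraries held 10.51, 10.41, 10.685 and 10.85, and those of L12YT-ECKO held 10.70, 10.70, 11.26 and 11.65. All 4 L12YT-ECKO libraries were above every WT library, whereas 2 of the L12-ECKO libraries were below WT replicate 3. The log2 difference from WT was 0.79 in L12-ECKO (SE 0.358, limma adjusted p = 0.386) and 1.26 in L12YT-ECKO (SE 0.358, limma adjusted p = 0.531).

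Tap2 encodes the second chain. It was measured at 5.26, 7.75, 9.05 and 6.89 in WT, a spread of 1.59 (SD, n = 4) that was wider than that of Tap1 (0.771). L12-ECKO libraries stood at 11.305, 10.09, 10.325 and 11.93, all above every WT library. L12YT-ECKO libraries stood at 8.96, 9.14, 11.01 and 11.40, of which replicate 1 was just under WT replicate 3. The log2 difference from WT was 3.67 in L12-ECKO (SE 0.777, limma adjusted p = 0.0638) and 2.89 in L12YT-ECKO (SE 0.777, limma adjusted p = 0.56). Tap2 passed the threshold in L12-ECKO when WT replicate 3 was left out (4.28, limma adjusted p = 0.0183) and did not in the other 11 leave-one-out fits (up to 0.16). With the batch covariate the difference was 2.92 (limma adjusted p = 0.461), with sex as a covariate 3.64 (0.19), and with the replicate number as a block the limma adjusted p was 0.0456. Of 12 other ways of fitting that kept all or a batch of the libraries, the block among them, it passed in 4. Antisense annotations Gm20496 and Gm15821 overlap Tap2.

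Tapbp encodes tapasin, the bridge between the transporter and the empty heavy chain. The WT libraries held 11.97, 11.57, 11.39 and 11.27. The L12-ECKO libraries held 12.08, 12.04, 10.59 and 10.745, and those of L12YT-ECKO held 12.525, 11.88, 11.99 and 12.19. The L12-ECKO libraries divided into replicates 1 and 2 above 12 and replicates 3 and 4 under 11, with WT between them. The log2 difference was -0.19 in L12-ECKO (limma adjusted p = 0.852) and 0.60 in L12YT-ECKO (limma adjusted p = 0.817). Between the knockouts it was 0.79 (95% confidence interval 0.097 to 1.47, limma adjusted p = 0.742).

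Psmb8 encodes LMP7, an interferon-inducible catalytic subunit that replaces the standard subunit Psmb5. The WT libraries held 8.405, 8.40, 9.02 and 7.53. The L12-ECKO libraries held 8.47, 8.35, 8.265 and 9.47, and those of L12YT-ECKO held 9.32, 9.49, 8.72 and 8.89. WT replicate 3 was above 3 of the L12-ECKO and 2 of the L12YT-ECKO libraries. The log2 difference from WT was 0.30 in L12-ECKO (limma adjusted p = 0.814) and 0.77 in L12YT-ECKO (limma adjusted p = 0.824).

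Psmb9 encodes LMP2, which replaces the standard subunit Psmb6 in the same particle. The WT libraries held 4.66, 6.42, 7.33 and 6.19. The L12-ECKO libraries held 8.52, 9.08, 8.72 and 9.07, and those of L12YT-ECKO held 7.59, 7.66, 8.71 and 8.29. All 8 knockout libraries were above every WT library, and the lowest WT value, in replicate 1, was 1.65 above the lowest value that library lists. Psmb9 rose by 2.70 in L12-ECKO (SE 0.592, 95% confidence interval 1.46 to 3.93, limma adjusted p = 0.0481). The difference was 1.91 in L12YT-ECKO (SE 0.592, 95% confidence interval 0.671 to 3.15, limma adjusted p = 0.618) and 2.30 with the knockouts taken as 1 group (limma adjusted p = 0.0924). Groups that do not overlap, higher in L12-ECKO, were found for 2.97% of all genes tested, higher in L12YT-ECKO for 2.54%, and with both knockout groups above WT for 0.593%. In the other direction, lower than WT without overlap, stood 0 of the 9 class I genes in L12-ECKO (3.36% of all genes) and 1, H2-T23, in L12YT-ECKO (2.17%).

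The Psmb9 call was close to the threshold. Leaving out 1 library at a time kept it in 1 of 12 fits (without WT replicate 3) and ended it in the other 11, with differences from 2.20 to 3.09 and limma adjusted p from 0.0231 to 0.12. With the displaced rows as a covariate the difference was 2.18 (limma adjusted p = 0.459). With sex as a covariate, which partly overlaps that batch, the difference was 2.47 (limma adjusted p = 0.184). Among the 7 libraries without displaced rows, which include 1 L12-ECKO library (replicate 1), it was 2.37 (limma adjusted p = 0.843), and Tap2 differed by 4.07 (limma adjusted p = 0.224). The batch of 5 holds no WT library and gives no such value. With the replicate number as a block the limma adjusted p of Psmb9 was 0.0544.

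**Figure D2:**
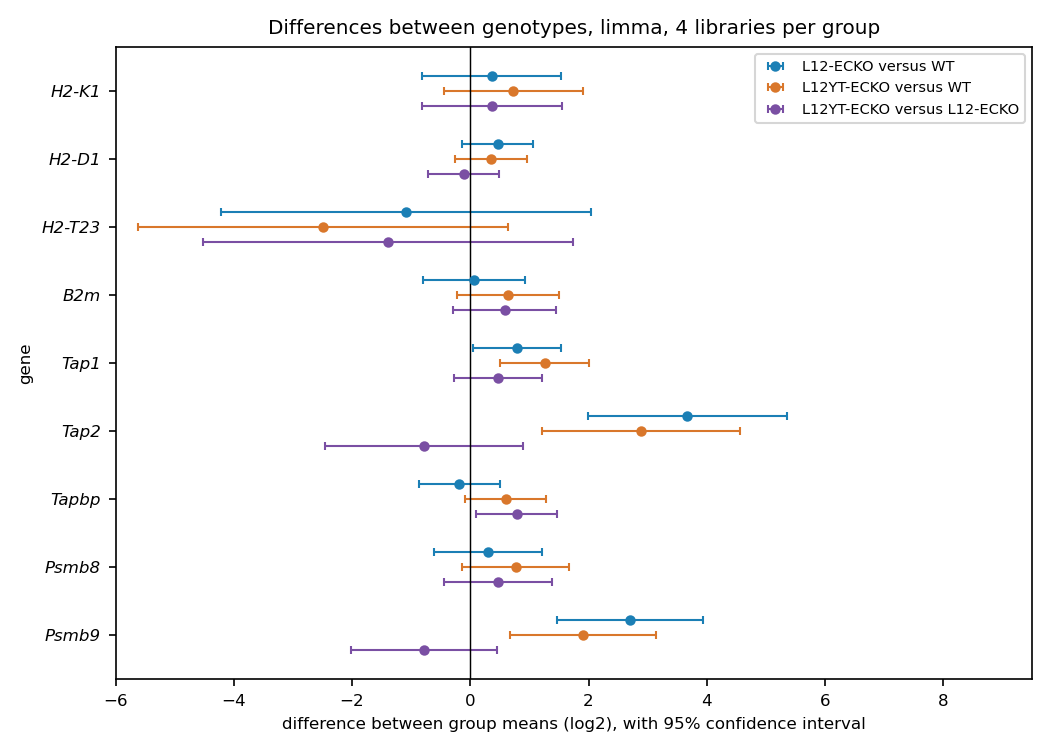
Differences between group means on the log2 scale (horizontal axis), with 95% confidence intervals from limma, for the 9 class I presentation genes tested. Tap2 (3.67) and Psmb9 (2.70) lie farthest to the right in L12-ECKO versus WT, and the H2-T23 intervals are the widest.

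Nlrc5 encodes the transactivator that drives class I promoters. All 4 WT libraries list it at 0. L12-ECKO libraries list 1.49, 0, 0 and 3.64, and L12YT-ECKO libraries 2.77, 0, 0 and 2.15. It was not tested, since it reached 1 CPM in 1 library only. Of the 4 values above 0, 3 are under the lowest value above 0 in any WT library (3.01), and the value in L12YT-ECKO replicate 1 equals the lowest that its library lists, so no difference was detectable at these levels.

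Between the knockout groups, which differ in the Yap and TAZ alleles, 0 of the 9 genes tested were called, against 0.0688% of all genes (0.0602% lower in L12YT-ECKO), with 1 of 9, Tapbp, at an unadjusted p under 0.05. Groups without overlap were found for 0 of 9, against 2.75% of all genes higher and 1.62% lower in L12YT-ECKO. Of the 9, 5 lay above 0, against 55% of all genes. Tap2 differed by -0.78 (95% confidence interval -2.46 to 0.893) and Psmb9 by -0.79 (-2.03 to 0.451), both lower in L12YT-ECKO. B2m differed by 0.58 (-0.287 to 1.45), H2-K1 by 0.37 (-0.811 to 1.55) and Tap1 by 0.47 (-0.281 to 1.22), all higher in L12YT-ECKO. These intervals reach past 1 on the log2 scale in at least 1 direction, so a p over the threshold does not show that the knockouts are alike. Within the 5 libraries with displaced rows Tap2 differed by 0.42 and Psmb9 by -0.46. Within the 7 without, which hold 1 L12-ECKO library, they differed by -2.25 and -0.90. Both comparisons with WT use the same 4 WT libraries. Their median differences over the 9 genes tested were 0.36 and 0.73, with medians over all genes of -0.02 and 0.08, and 7 and 8 of the 9 lay above 0, against 49% and 54.3% of all genes. With the knockouts as 1 group 8 of 9 lay above 0, against 50.6%.

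The 4 neighbouring genes on chromosome 17 did not differ from WT by the same amount. From the Psmb9 end to the Tap2 end, the log2 differences in L12-ECKO were 2.70, 0.79, 0.30 and 3.67, and in L12YT-ECKO 1.91, 1.26, 0.77 and 2.89. Psmb9 and Tap1, whose starts are 225 bases apart, had estimates of different size, and the outer genes had the larger ones in both groups. The difference between neighbours was not tested.

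**Figure D3:**
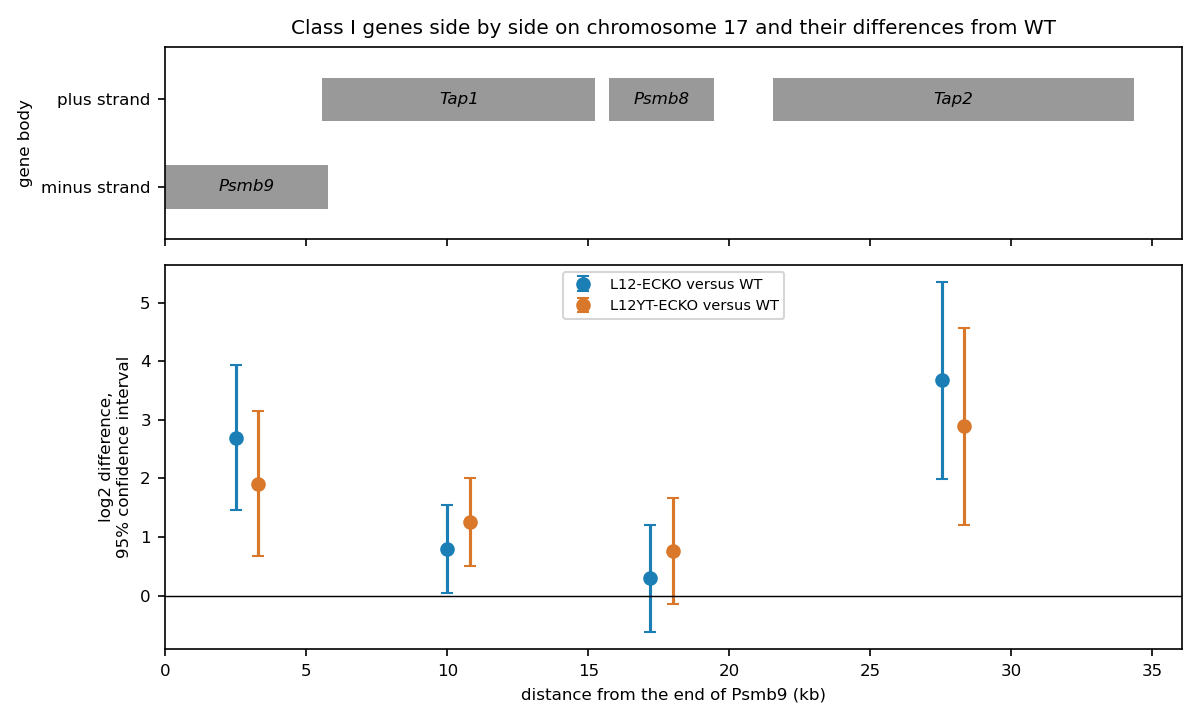
Gene bodies of Psmb9, Tap1, Psmb8 and Tap2 by strand (upper panel) and their log2 differences from WT with 95% confidence intervals (lower panel), against distance in kb from the end of Psmb9. The outer genes, Psmb9 and Tap2, have the larger differences in both knockout groups (2.70 and 3.67 in L12-ECKO).

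Across the 12 libraries, which share groups and processing, the genes formed pairs of like values. Tap2 and Psmb9 followed each other (Pearson r = 0.948), also in deviations from the group means (r = 0.841). H2-K1 and B2m had r = 0.899, H2-K1 and H2-D1 0.85 and H2-D1 and B2m 0.803, and in deviations from the group means these were 0.9, 0.882 and 0.912. The highest WT and L12-ECKO values of these 3 genes are in the libraries with the highest leukocyte sums, as given above. Over the 36 pairs of tested members r ran from -0.672 to 0.948 with a median of 0.426, and 26 were above 0. H2-T23, which lay near the lowest values listed, had a negative r with all 8 others, the lowest with Tap2. In deviations from the group means its r was 0.0 with Psmb8, -0.025 with Tapbp and -0.035 with Tap1. With the other genes it ran from -0.2 (H2-D1) to -0.668 (Tap2). These are descriptions over 12 libraries, without a test.

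**Figure D4:**
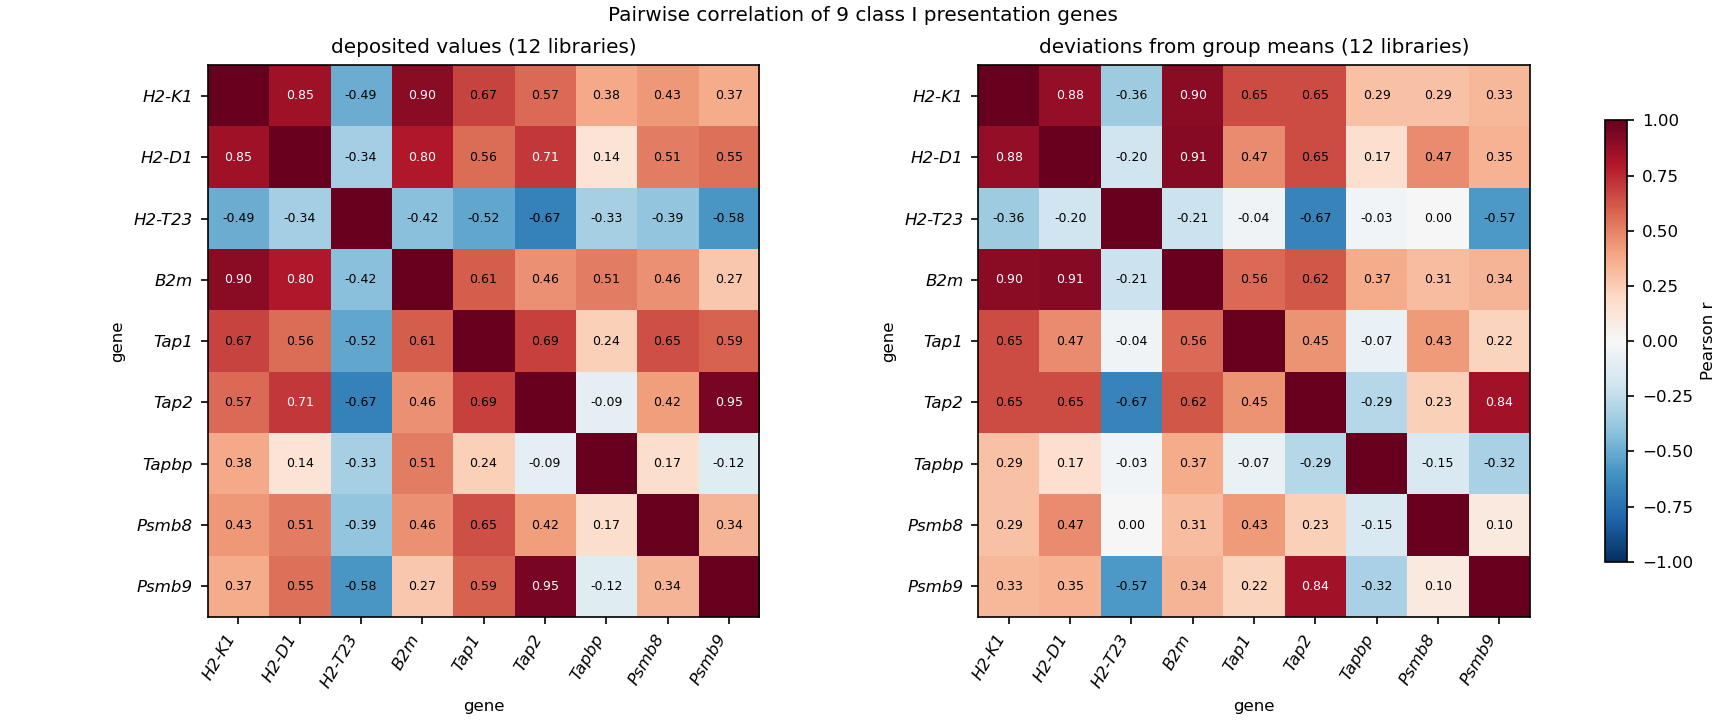
Pearson r between the 9 tested class I presentation genes over 12 libraries, from deposited values (left) and from deviations from group means (right); color gives r from -1 to 1. Red cells group H2-K1, H2-D1 and B2m, and Tap2 with Psmb9 (0.948 on the left), and the H2-T23 row is blue on the left.

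The genes most like the members, by median r with the 9 over 12 libraries, were F2r (0.721), Iscu (0.704), Mkrn2 (0.701), Zfp36 (0.69) and Arf4 (0.682). By deviations from group means they were Slbp (0.699), Mkrn2 (0.687), Glb1l3 (0.682), Ptgfrn (0.668) and Exo1 (0.665), so that Mkrn2 was in both.

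Other heavy chain genes were measured less surely. Of 23, 15 were tested and 0 called by limma in either knockout group against WT (0 also at an unadjusted p under 0.05), with median log2 differences of 0.63 in L12-ECKO and 0.91 in L12YT-ECKO. H2-Q7, a Qa-2 gene, differed by 0.63 and 0.78 (limma adjusted p = 0.836 and 0.922), and H2-Q4 by 0.48 and 0.44 (limma adjusted p = 0.794 and 0.934). H2-Q9 follows H2-Q7 at a near-constant distance (1.51 to 1.61 on the log2 scale), and H2-Q6 and H2-Q8, and H2-T9 and H2-T22, had equal values in all 12 libraries, so such copies are not separate measurements. C57BL/6 mice are known to lack an H2-L gene, so the values listed under that symbol (7.36 to 9.78) cannot be read as its level. H2-M3, which had the spaced boxes, differed by 3.16 and 1.39 (limma adjusted p = 0.467 and 0.913), with 2 WT libraries listed at 0; it was named for its promoter after the matches were seen.

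Of 5 further loading and trimming genes, 0 were called by limma against WT, and 1 in each knockout group, Tapbpl, had an unadjusted p under 0.05. Tapbpl encodes TAPBPR, a tapasin relative that edits peptides, and stood at 4.72, 7.695, 5.57 and 7.02 in WT. In L12-ECKO it stood at 7.94, 8.98, 8.94 and 9.82, above every WT library (2.67 higher, limma adjusted p = 0.11), and in L12YT-ECKO at 7.65, 6.62, 8.77 and 8.31, overlapping WT (1.59 higher, limma adjusted p = 0.76). The general chaperones calreticulin (Calr: 0.13 and -0.11) and calnexin (Canx: 0.09 and -0.16) and the thiol oxidoreductase Pdia3 (0.58 and 0.58) differed from WT by less than 0.6 in L12-ECKO and in L12YT-ECKO.

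Of the other inducible proteasome genes 0 of 3 were called by limma, or had an unadjusted p under 0.05, against WT. Psmb10, the third inducible catalytic subunit, differed by 0.09 in L12-ECKO and 0.11 in L12YT-ECKO, so its estimate was far from that of Psmb9. The activator subunits Psme1 and Psme2 differed by -0.72 and 1.34 in L12-ECKO and by -0.04 and 1.21 in L12YT-ECKO. All 14 genes of the standard core were tested and 0 called by limma (2 in L12-ECKO and 1 in L12YT-ECKO at an unadjusted p under 0.05), with medians of -0.27 and -0.20. Among them Psma7 differed by -0.20 and -0.27 and Psmb1 by -0.33 and -0.25. Not all core genes lay lower, since 5 of the 14 were above 0 in each comparison with WT. In L12-ECKO, Psma1 (9.317 to 10.006) and Psmb7 (9.106 to 10.233) stood above every WT library (up to 9.313 and 9.035). Such a lack of overlap was found for 2 of 14 higher and 0 lower, against 2.97% and 3.36% of all genes. In L12YT-ECKO it was found for 0 of 14 (2.54% higher and 2.17% lower over all genes). The subunits that LMP7 and LMP2 replace did not pass the test either: Psmb5 differed by -0.41 and -0.15 and Psmb6 by -0.20 and -0.25, with limma adjusted p of 0.551 and 0.948 for Psmb5 and 0.841 and 0.948 for Psmb6; they were named for that role.

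Upstream factors gave no call. Of 12 class I promoter factors 0 passed in each comparison with WT (1 and 2 at an unadjusted p under 0.05 by limma, medians 0.28 and 0.44). Irf1, an interferon-induced activator of these promoters, differed by 0.06 in L12-ECKO and by 0.74 in L12YT-ECKO, where its groups did not overlap WT (limma adjusted p = 0.817). Rela, the NF-kB subunit, differed by 0.70 and 1.05 (limma adjusted p = 0.492 and 0.754). Creb1 and the NF-Y gene Nfyb went the other way, with knockout means under their WT means of 11.34 and 9.63. For L12-ECKO these were 10.765 and 9.31, and for L12YT-ECKO 11.05 and 9.08, all from groups that overlapped WT. Of 9 interferon receptor and signalling genes 0 passed (0 and 1 at an unadjusted p under 0.05 by limma, medians 0.62 and 0.00). Irf9, the DNA-binding part of the factor that answers type I interferon, differed by 0.62 in L12-ECKO and by 1.48 in L12YT-ECKO, without overlap (limma adjusted p = 0.499). Jak1, Ifngr1 and Ifnar2 had knockout means under their WT means of 10.70, 10.39 and 9.98, with overlap. For L12-ECKO these were 10.18, 9.92 and 9.325, and for L12YT-ECKO 10.66, 10.16 and 9.61.

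Of 24 type I interferon targets 19 were tested, and 2 rose in L12-ECKO, beside 0.292% of all genes higher. In L12YT-ECKO 0 were called by limma, with 10 at an unadjusted p under 0.05. No other pathway list had a call against WT. The ubiquitin-like protein gene Isg15 stood at 7.20, 7.04, 4.66 and 5.39 in WT. L12-ECKO libraries read 9.27, 9.78, 9.39 and 11.705, and L12YT-ECKO libraries 9.20, 8.52, 11.18 and 9.795, with no overlap between WT and either knockout. Isg15 rose by 3.96 in L12-ECKO (limma adjusted p = 0.0168) and differed by 3.60 in L12YT-ECKO (limma adjusted p = 0.184). Bst2 (tetherin, which holds budding viruses at the cell surface) rose by 1.96 in L12-ECKO (limma adjusted p = 0.0331) and differed by 1.99 in L12YT-ECKO (limma adjusted p = 0.184). Of the 56 genes called in L12-ECKO versus WT, 11 stayed called with the batch covariate and 13 with sex. Whether Isg15 and Bst2 were among those was not examined. In L12YT-ECKO the displaced libraries, replicates 3 and 4, held the highest Isg15 values, while Bst2 did not divide in that way. The list's medians were 1.45 and 2.10, with 19 of 19 and 17 of 19 above 0. Lgals3bp moved little in L12-ECKO, with a mean of 8.07 beside 7.84 for WT. Its L12YT-ECKO mean was 9.25, and both knockout groups overlapped WT. The antiviral enzyme gene Rsad2 differed by 1.78 and 2.10 (limma adjusted p = 0.176 and 0.499). These genes and class I genes are both interferon-inducible, and this list was chosen with earlier results of the series known.

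Of 12 interferon-inducible GTPase genes (GBP and IRG families), which attack intracellular microbes, 0 were called by limma (2 and 3 at an unadjusted p under 0.05), with medians of 1.01 and 1.12. Gbp7 differed by 0.49 and 1.01 and Iigp1 by 3.19 and 3.14, the latter with WT replicate 4 listed at 0. Gbp4 differed by -1.25 and 0.17. Of 10 MHC class II genes, which professional presenting cells use, 2 were tested, with 0 called by limma (1 and 0 at an unadjusted p under 0.05). Cd74, the invariant chain of class II molecules, stood at 3.59, 0, 0 and 0 in WT and at 6.35, 5.64, 5.37 and 4.86 in L12-ECKO, with no overlap (4.66 higher, limma adjusted p = 0.255). L12YT-ECKO libraries read 0, 0, 1.03 and 5.42. Cd74 passed the filter largely through L12-ECKO, the group where it was high, so its difference and lack of overlap there support nothing. H2-Eb1 differed by -1.22 and -1.06. The summed level of the 10 was 0 to 18.84 CPM in WT, 2.517 to 13.63 in L12-ECKO and 3.418 to 10.87 in L12YT-ECKO.

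**Figure D5:**
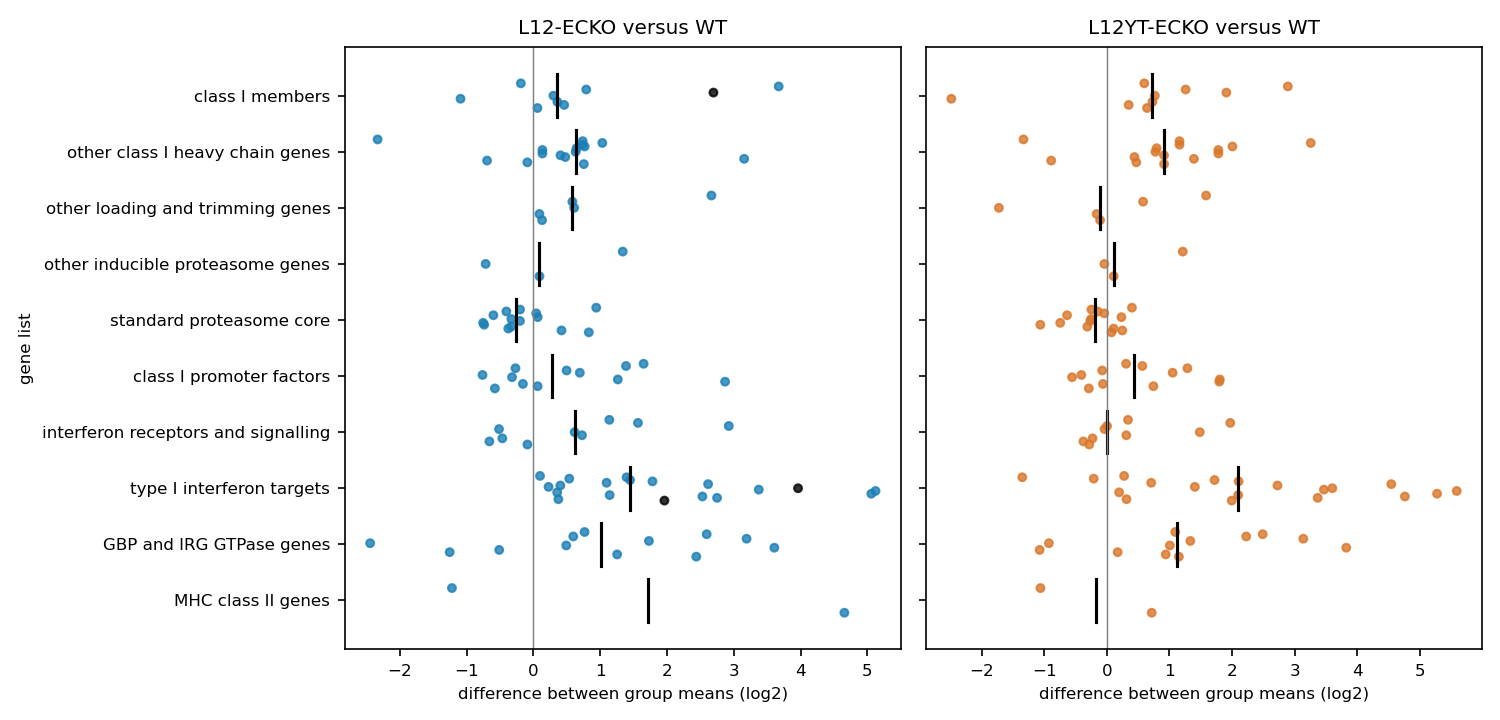
Log2 differences from WT (horizontal axes) of the tested genes in each of 10 lists, in L12-ECKO (left) and L12YT-ECKO (right); points are genes, short vertical lines are list medians, and black points passed a limma adjusted p of 0.05. Black points are Psmb9 among the class I genes and Isg15 and Bst2 among the type I interferon targets, all in L12-ECKO; the standard proteasome core is centred slightly below 0.

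Of 9 leukocyte markers tested 0 were called by limma, or had an unadjusted p under 0.05, in each comparison with WT, and their sums were 17.46 to 314.2 in WT, 20.6 to 8005 in L12-ECKO and 15.63 to 95.06 in L12YT-ECKO. Without L12-ECKO replicate 1, the library with the highest leukocyte sum, the Psmb9 difference from WT was 2.80 (limma adjusted p = 0.0979) and that of Tap2 3.54 (limma adjusted p = 0.142). Without WT replicate 3, the highest WT library for both genes, they were 3.09 and 4.28 (limma adjusted p = 0.0231 and 0.0183), and without both libraries 3.20 and 4.15 (limma adjusted p = 0.0483 and 0.0494). Red cell and platelet marker sums were 3230 to 19410 CPM in WT, 2433 to 10610 in L12-ECKO and 3701 to 14030 in L12YT-ECKO. Of 9 such markers tested, L12-ECKO had 8 under the WT mean (median difference -0.69) and L12YT-ECKO had 7 (-0.54). Mesenchymal sums were 105.1 to 206.3 in WT, 61.8 to 129.7 in L12-ECKO and 58.96 to 181.5 in L12YT-ECKO, and 6 of 8 tested lay below WT in each, with 3 of the 8 at an unadjusted p under 0.05 in L12-ECKO. Epithelial sums were 128.2 to 445.5, 80.29 to 396.8 and 82.74 to 392.8 in the same order, with 5 and 4 of 8 below WT. By limma 0 genes of the red cell, mesenchymal and epithelial lists were called against WT, and the part of these cells in the class I results was not tested. Liver gene sums went with the displaced rows, at 97.44 to 477.1 in the displaced L12-ECKO libraries against 48.59 in replicate 1 and 23.15 to 81.98 in WT. Among 16 liver genes 10 were tested and 0 called by limma (4 and 0 at an unadjusted p under 0.05), with medians of 3.63 and 1.80, and their part in the result was not tested. Tap2 and Psmb9 also went with the displaced rows within L12YT-ECKO: Tap2 was at 11.01 and 11.40 in the 2 displaced libraries against 8.96 and 9.14 in the others, and Psmb9 at 8.71 and 8.29 against 7.59 and 7.66. In L12-ECKO the 3 displaced libraries had Psmb9 at 9.08, 8.72 and 9.07, above the 8.52 of replicate 1, while Tap2 in replicate 1 (11.305) lay among them.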

How the data were processed

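QuantSeq 3′ libraries were prepared from Trizol-extracted total RNA, per the labels' protocols. Bowtie2, edgeR and mm10 are named in the submitters' processing notes; the sources used here give neither versions nor roles. The authors deposited 1 table per library of quantile-normalized log2 values (read from the values: equal ranks have near-equal values in all 12 libraries), not counts. A count test was therefore not used and depth is unknown.

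Values were analysed as deposited. CPM values are 2 to the power of the value, scaled to a common table total. Genes with at least 1 CPM in at least 4 libraries (11634) were fitted with limma 3.58.1 in R 4.3.3 (1 mean per group, trended robust prior, 9 residual degrees of freedom) and p adjusted by Benjamini-Hochberg over all of them; calls are at 0.05. The fit was tested on simulated data with independent normal noise and no batch or sex effect, so that test does not cover those limits. Left out were 34 rows (the displaced block of 32, Rn45s and Rn4.5s) and 27 genes with date-like names, which kept 24360 genes. Batch, sex (read from Xist and Ddx3y), filter, prior, scale and left-out libraries were varied. Members and lists were chosen with earlier results of these data known. Named genes are all 10 members and, from each other list, up to 4, called ones first and then the highest mean. Sequences are RefSeq windows (GRCm38.p6); positions are from GENCODE M21.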

Additional observations from a re-analysis of the deposited data

How the results depend on the processing

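Of the single-gene values recomputed for the 9 genes tested, 851 kept their direction and side of the threshold, 21 lost a call, 8 gained one and 16 changed sign. The call lost was that of Psmb9 in L12-ECKO versus WT, and those gained were Tap2 or, with the knockouts as 1 group, Psmb9. Psmb9 was called in 3 of 12 alternatives on the log2 scale (limma adjusted p from 0.0285 to 0.843) and Tap2 in 5 of 12 (0.0295 to 0.461). The cause was not tested.

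Leaving out each library, the genes called in L12-ECKO versus WT ran from 15 to 80 and the members called from 0 to 2. For L12YT-ECKO versus WT the genes called ran from 1 to 3, for L12YT-ECKO versus L12-ECKO from 4 to 9, and for both knockouts versus WT from 0 to 25, with 0 to 2 members. The differences of B2m (-0.308 to 0.417), H2-K1 (-0.064 to 0.806) and Tapbp (-0.426 to 0.07) in L12-ECKO versus WT and of H2-D1 between the knockouts (-0.264 to 0.11) changed sign within those fits.

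Where 56 genes and 1 member were called in L12-ECKO versus WT, the batch covariate gave 15 and 0 (both knockouts versus WT: 0), sex as a covariate 15 and 0 (both: 0; between knockouts 5), no filter 21 and 0 (both: 2), no trend in the prior variance 7 and 0 (L12YT-ECKO versus WT: 0; between knockouts 3; both: 3), a second log 27 and 0 (between knockouts 4; median member difference in L12YT-ECKO versus WT 0.081), fits of only the groups compared 30 and 0 (between knockouts 5), and centring on the library median 23 and 0 (between knockouts 5). Centring turned the split of calls from 34 higher and 22 lower to 18 and 5, and moved the differences by 0.082 in L12-ECKO and 0.165 in L12YT-ECKO. Raising values under 5 to 5, with a mean of at least 5, called 2 members (both knockouts versus WT: 23 genes), as did a pseudocount of 16 (both: 20 genes) and, chosen after seeing the data, leaving out WT replicate 3 with L12-ECKO replicate 1.

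Among the 7 libraries without displaced rows 0 members were called and the median member difference was 1.13 in L12-ECKO versus WT and -0.799 between the knockouts, where 14 genes were called. Those 7 include only 1 L12-ECKO library, replicate 1, which had the highest leukocyte sum of its group (8005 CPM). The differences, calls and sign changes given here for the 7 libraries rest on that library. The part of its leukocyte content in them was not tested. Among the 5 displaced libraries 0 genes were called between the knockouts (limma), and these give no comparison with WT. Signs changed for Tapbp in L12-ECKO versus WT with the batch covariate (0.165), in the 7 libraries (0.526) and with sex (0.067). Between the knockouts they changed for B2m (-0.799) and H2-K1 (-1.42) in the 7 libraries, H2-D1 (0.159) and Tap2 (0.424) in the 5, H2-K1 with sex (-0.028), and H2-D1 without WT replicate 3 and L12-ECKO replicate 1 (0.11).

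Replicate numbers gave no sign of pairing the libraries. Deviations of same-numbered libraries correlated at -0.046 to 0.058 in 12 pairs, against -0.104 to 0.154 in the 36 other pairs between groups. Of 12 libraries, 4 correlated best with their own number. These values cannot show that same-numbered libraries share no source. With the replicate block 43 genes and 1 member were called in L12-ECKO versus WT, the member being Tap2 (limma adjusted p = 0.0456) in place of Psmb9 (0.0544). A fit of only the groups compared was not run for both knockouts together. Depth is unknown, which limits H2-T23 and Nlrc5 most.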
